A study of Mus musculus with 8 samples.

Results

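Ep300, Crebbp, Kat2a, Kat2b, Kat5, Kat6a, Kat7 and Kat8, which code for histone acetyltransferases, and Brd2, which codes for a reader of acetylated histones of the bromodomain and extraterminal (BET) family, were followed across 4 groups of sorted mouse dendritic cells (DC). They were chosen by their symbols: the rows of the deposited count table whose Entrez Gene ID maps to these 9 names, 9 of 27179 genes, and all 9 passed the filter on low counts. The table holds RNA-seq read counts of plasmacytoid DC (pDC) and conventional DC (cDC) sorted from the spleens of leukemia-bearing C57BL/6 mice after 2 days on drug or vehicle. The groups were pDC from mice given panobinostat, an inhibitor of histone deacetylases, pDC from mice given vehicle, cDC from mice given panobinostat and cDC from mice given vehicle. There were 2 libraries per group, named biological replicates in the labels, each from a pool of 3 to 6 mice. All mice carried a leukemia. Its genetic driver, the age and sex of the mice, the dose and the gates of the sort are not stated in the labels.

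Histone acetyltransferases transfer acetyl groups to lysines of histone tails and of many other proteins, and histone deacetylases, the targets of panobinostat, take them off again. Proteins with a bromodomain bind acetylated lysines. BET proteins hold bromodomains in tandem and bring elongation and chromatin factors to acetylated promoters and enhancers. In DC this balance is studied because interferon and cytokine genes are switched on at strongly acetylated enhancers, and because deacetylase inhibitors and BET inhibitors both alter that response.

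Total counts were 13124861 to 20657429 per library, and single counts of the 9 genes were 6 to 6210. Levels are given as CPM (a gene's share of the library's counts, after TMM scaling for differences in composition), changes as log2 fold changes ± standard error (SE), and n is 2 libraries per group throughout. The adjusted p values come from the quasi-likelihood test of edgeR, adjusted by Benjamini-Hochberg over all 14238 genes tested, with 0.05 as the threshold. The SE was derived from the same test, as the absolute log2 fold change divided by the square root of its F statistic. Panobinostat pDC replicate 2 stood apart: it held 10745 genes with at least 1 count, against 14927 in panobinostat pDC replicate 1 and 16109 to 19950 in the other 6 libraries. Of 5812 genes with at least 500 counts in panobinostat pDC replicate 1, 334 (5.75%) had under 20 in replicate 2, where the same count was 0 to 2 genes within each of the other 3 groups. Where leaving out this library or its partner ends a gene's call or moves its value by much, the values without that library are given. Such a fit leaves 1 library in the panobinostat pDC group, which then adds nothing to the estimate of the spread. A call gained that way is therefore no check on the scatter within that group.

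The titles name DC but the extraction protocol refers to sorted leukemia cells, so markers were summed in each library. The 15 pDC markers came to 19593 and 25206 CPM in panobinostat pDC, 16644 and 21577 CPM in vehicle pDC, 2074 and 2233 CPM in panobinostat cDC, and 1356 and 2001 CPM in vehicle cDC. The 15 cDC markers were higher in the 4 cDC libraries (4437 to 5091 CPM) than in the 4 pDC libraries (2578 to 4173 CPM), and the 10 progenitor and leukemia markers reached 29.3 to 74.5 CPM in pDC libraries and 267 to 410 CPM in cDC libraries. The pDC and cDC labels therefore matched the direction of both DC marker sums in all 8 libraries. No leukemia sample was at hand and the driver is not stated. The sums therefore cannot tell whether leukemia cells were among the sorted cells. Sums over the marker lists of other cells were not level. The 12 NK cell markers summed to 597 and 1338 CPM in panobinostat pDC. They summed to 181 and 277 CPM in vehicle pDC and 149 to 517 CPM in cDC libraries. The 12 monocyte and macrophage markers summed to 3306 and 6639 CPM in panobinostat pDC. In vehicle pDC they came to 2205 and 3988 CPM, and in cDC libraries to 985 to 1523 CPM. In panobinostat pDC replicate 2, 9 of the 12 NK cell markers, Ncr1, Prf1 and Gzma among them, and 9 of the 12 monocyte and macrophage markers stood at 0 counts. Both sums in that library came from the remaining markers of each list. Erythroid markers (7 genes) summed to 6550 and 2407 CPM in panobinostat pDC, against 2162 and 1190 CPM in vehicle pDC. T cell markers (10 genes) summed to 560 and 797 CPM in panobinostat pDC, against 1108 and 1687 CPM in vehicle pDC. B cell markers stayed at or under 669 CPM and neutrophil markers at or under 7.71 CPM in every library. The sums do not show whether these transcripts came from other cells or from the DC. Their part in the values below was not tested.

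Scaled by exon length, so that genes can be set side by side, Brd2 and Kat7 were the most abundant of the 9 transcripts and Kat2b the least in 3 of the 4 groups. In panobinostat pDC, Kat7 led alone with a mean of 29.2 CPM per kb, and Brd2 came next with 10.6 CPM per kb, a level that overlapped that of Kat5. Below Kat7, every neighbour in that order overlapped the next, from Brd2 down to Ep300 at 2.92 CPM per kb. In vehicle pDC the mean level of Kat7 was 31.6 and that of Brd2 31.5 CPM per kb, ranges that overlapped, followed by Kat5 at 17.9 CPM per kb. In panobinostat cDC the order was Brd2 at 39.6, Kat7 at 23.5, Kat2a at 15.7 and Kat5 at 14.9 CPM per kb, where Kat2a and Kat5 overlapped, and it closed with Kat2b at 1.66 CPM per kb. Vehicle cDC held the same order of all 9 genes, led by Brd2 at 32.5 and Kat7 at 21.3 CPM per kb.

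**Figure D1:**
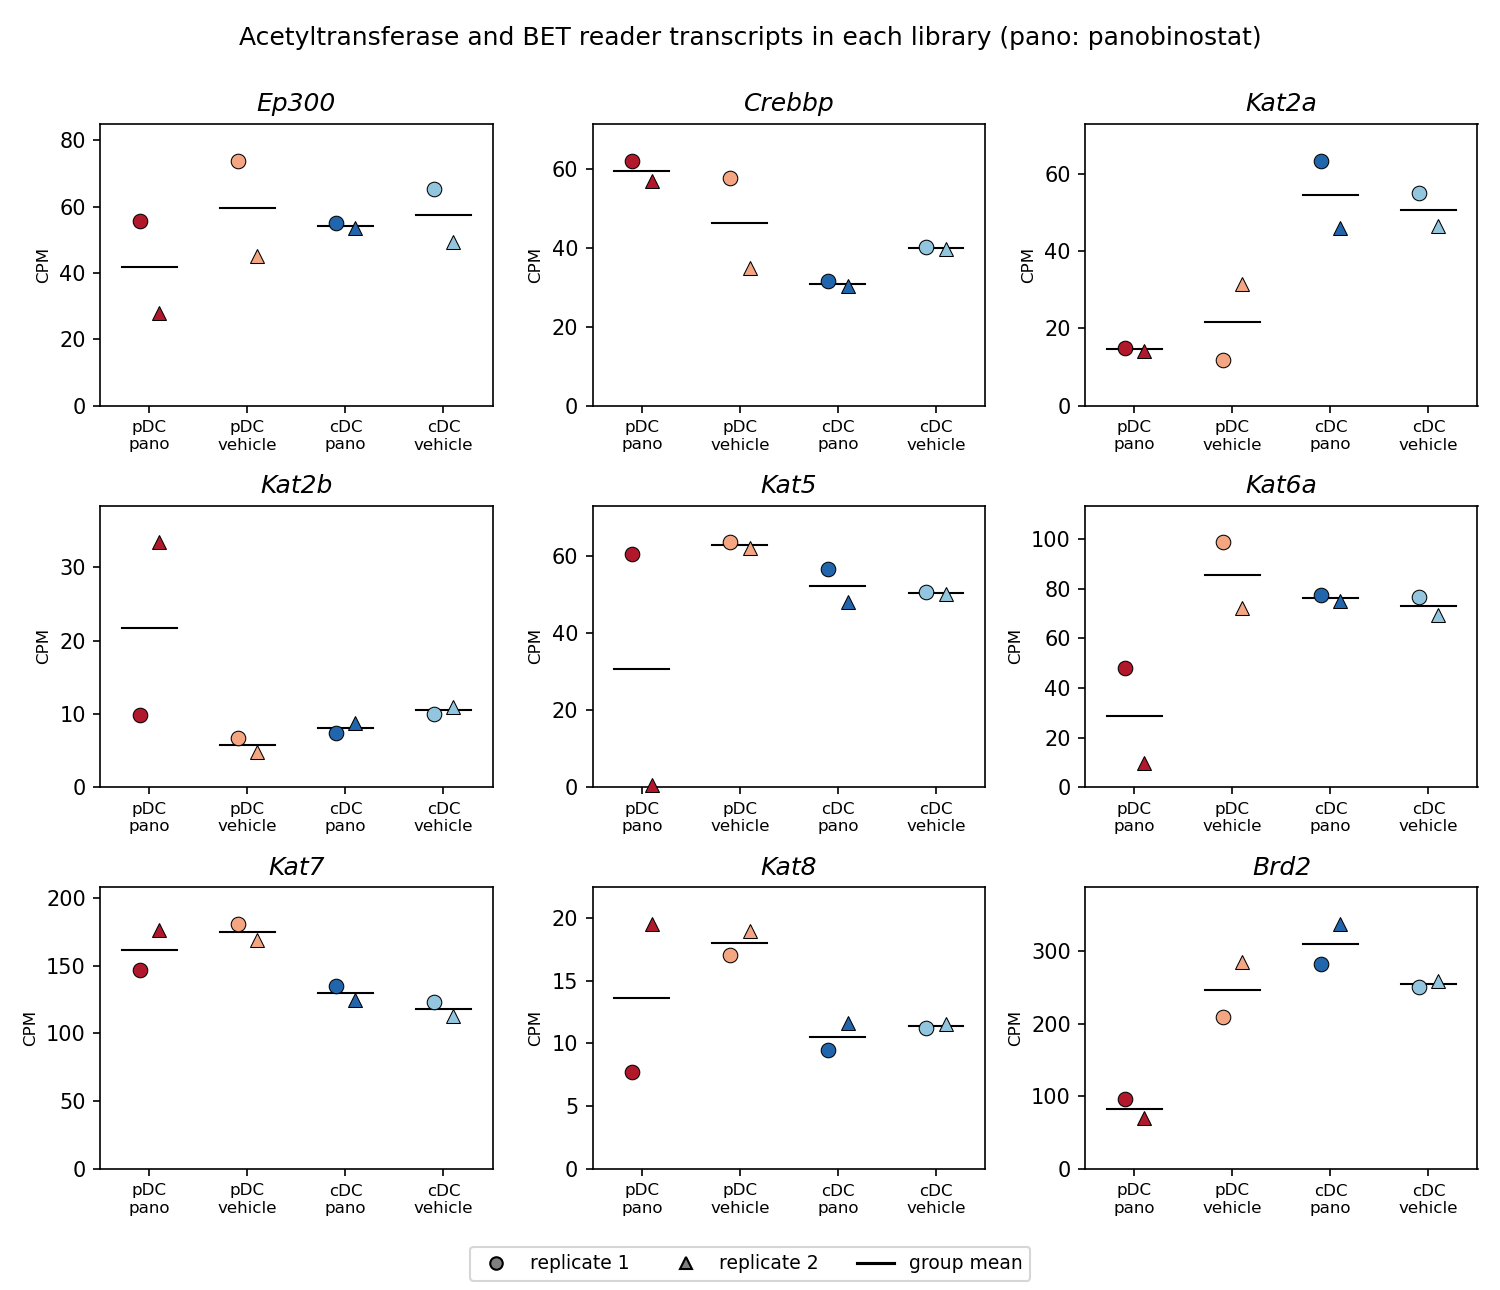
Levels of the 9 transcripts in CPM (vertical axis, linear from 0, own scale per gene) in each library of the 4 groups, with circles for replicate 1, triangles for replicate 2 and a line at the group mean. Brd2 lay at 95.6 and 70.5 CPM in panobinostat pDC and at 209 CPM or more in the other 6 libraries, and Kat2a lay at or below 31.6 CPM in the 4 pDC libraries and at or above 46.0 CPM in the 4 cDC libraries.

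Brd2 (Entrez Gene 14312, chr17:34112019-34122814 on the minus strand of mm10) codes for the BET protein known to bind acetylated histone tails and to carry transcription factors of the E2F family. It had 1929 and 759 counts in panobinostat pDC, 4137 and 5270 counts in vehicle pDC, 5856 and 6210 counts in panobinostat cDC, and 5368 and 5610 counts in vehicle cDC. In CPM it stood at 95.6 and 70.5 in panobinostat pDC, 209 and 285 in vehicle pDC, 282 and 337 in panobinostat cDC, and 250.1 and 259 in vehicle cDC. Both panobinostat pDC libraries were thus lower than all 6 others, both panobinostat cDC libraries were above both vehicle cDC libraries, and the pDC and cDC vehicle libraries overlapped. How many of all genes split the libraries this way was not counted. Against vehicle pDC alone, 26.5% of all genes were lower in panobinostat pDC without overlap, and against panobinostat cDC alone 38%.

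Between the cell types under panobinostat, Brd2 passed the test. It averaged 83.1 ± 17.8 CPM in pDC and 309.9 ± 38.9 CPM in cDC (SD, n = 2 each), which is 3.73-fold lower in pDC (log2 fold change -1.90 ± 0.24, adjusted p = 0.00637 by edgeR). This was 1 of 1452 genes called lower in pDC, 10.2% of those tested, and 29.3% of genes had a larger change in either direction. In bulk libraries, fewer cells of a type with the transcript and less RNA per cell cannot be told apart. The call was kept in 15 of 17 processing alternatives. It was lost without panobinostat cDC replicate 2 (-1.77, adjusted p = 0.0563) and in a fit of the 4 panobinostat libraries alone (-1.93, adjusted p = 0.0742), and with GC and length offsets (a correction for both properties of a transcript) the difference shrank to -1.04 (adjusted p = 0.0484). Without panobinostat pDC replicate 2 it was -1.75 (adjusted p = 0.00552).

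Under vehicle, Brd2 averaged 247 ± 53.9 CPM in pDC and 255 ± 6.28 CPM in cDC (SD, n = 2 each), a log2 fold change of -0.04 ± 0.24 (adjusted p = 0.965 by edgeR). Panobinostat against vehicle gave -1.57 ± 0.24 in pDC, with an unadjusted p of 0.000519 that ranked 61 among all genes, and did not pass after adjustment (adjusted p = 0.119). The same contrast in cDC gave 0.28 ± 0.24 (adjusted p = 1). The difference between the effects, pDC minus cDC, was -1.85 ± 0.34 (unadjusted p = 0.00128, adjusted p = 0.359), which passed by DESeq2 (-1.79, adjusted p = 0.00114) and without panobinostat pDC replicate 1 (-2.10, adjusted p = 0.00382) and in no other alternative. In pDC the direction held in all 17 alternatives, and 4 of them called the gene: no filter on low counts (adjusted p = 0.0395), DESeq2 (adjusted p = 6.53e-06), and the fits without panobinostat pDC replicate 1 (-1.82, adjusted p = 0.00234) or replicate 2 (-1.42, adjusted p = 0.0433). With GC and length offsets the pDC value was -0.68 (adjusted p = 0.326) and the difference between cell types -1.03 (adjusted p = 0.608). The treatment contrast in pDC and the contrast of the cell types under panobinostat share the panobinostat pDC libraries, so they are not separate evidence.

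**Figure D2:**
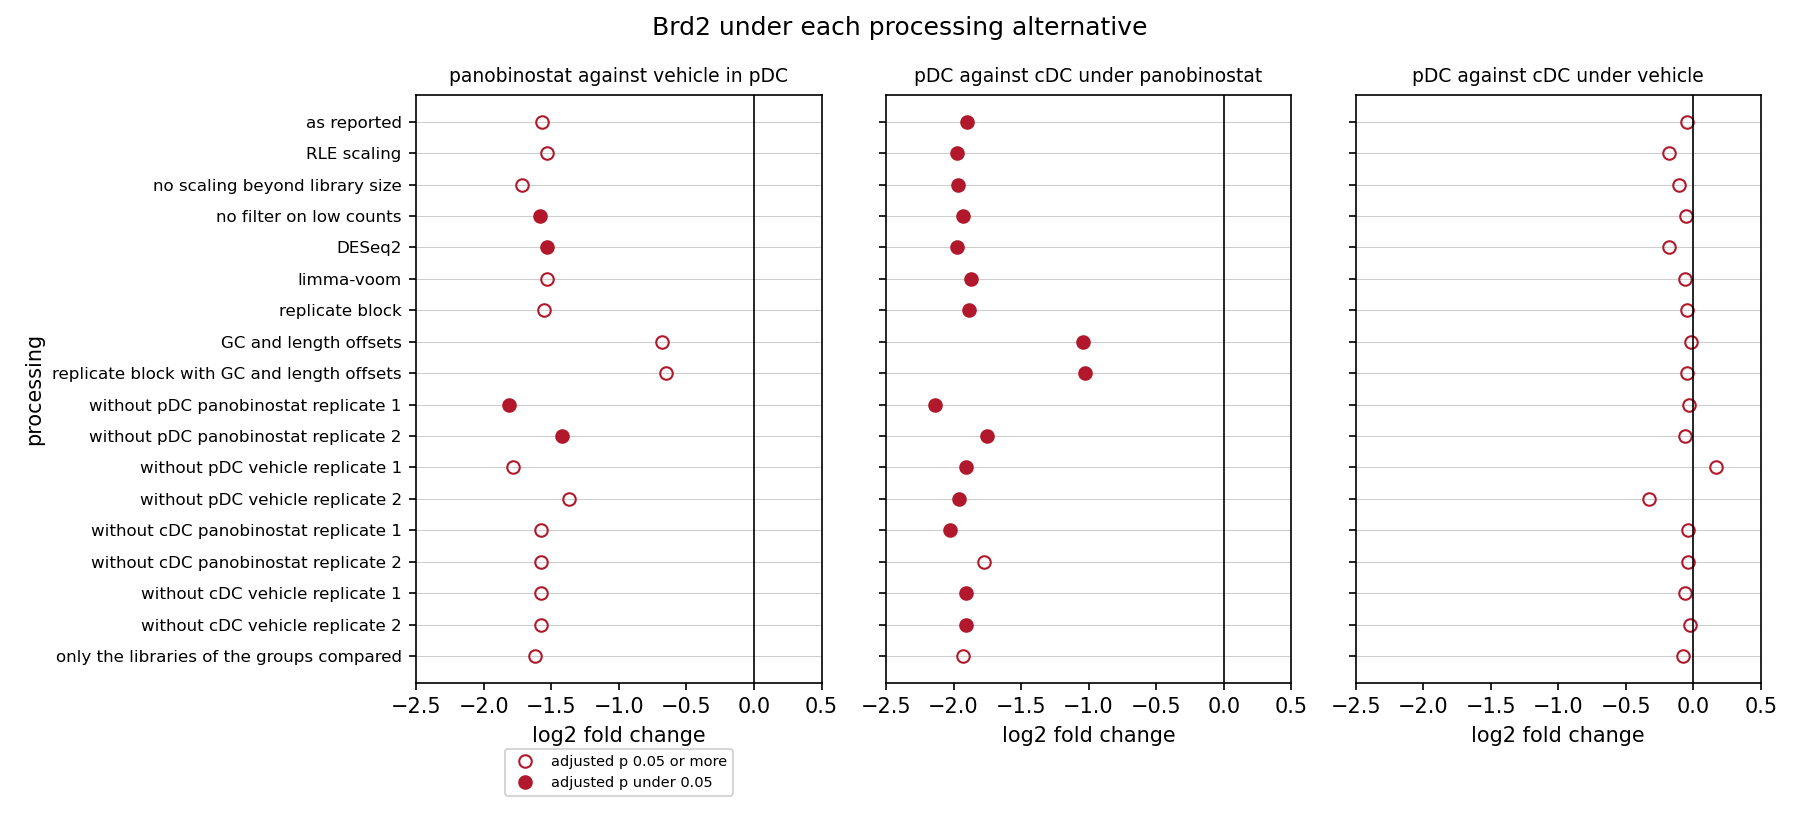
Log2 fold change of Brd2 (horizontal axis) under the processing as reported and 17 alternatives (vertical axis) for panobinostat against vehicle in pDC and for pDC against cDC under panobinostat and under vehicle, with filled points where the adjusted p is under 0.05. The first comparison ran from -1.82 to -0.65, the second from -2.14 to -1.03 with 15 of 17 points filled, and the third from -0.33 to 0.17 with none filled.

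Brd2 has 3 promoter windows in the RefSeq table (GRCm38.p6, 250 bases before to 50 bases after a start), and the 2 that hold a GC box (GGGCGG on either strand, the motif bound by Sp-family activators) are printed since Brd2 is the gene with the clearest difference among the 9. They read 5′ to 3′ on the minus strand, with the GC box in capitals.
Brd2 start at chr17:34119851-34120150: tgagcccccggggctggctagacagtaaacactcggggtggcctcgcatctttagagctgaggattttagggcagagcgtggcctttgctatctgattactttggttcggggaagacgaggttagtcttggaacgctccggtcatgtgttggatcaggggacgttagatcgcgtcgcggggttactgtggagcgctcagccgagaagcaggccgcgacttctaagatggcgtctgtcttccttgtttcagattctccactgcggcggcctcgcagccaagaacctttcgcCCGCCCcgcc
Brd2 start at chr17:34121698-34121997: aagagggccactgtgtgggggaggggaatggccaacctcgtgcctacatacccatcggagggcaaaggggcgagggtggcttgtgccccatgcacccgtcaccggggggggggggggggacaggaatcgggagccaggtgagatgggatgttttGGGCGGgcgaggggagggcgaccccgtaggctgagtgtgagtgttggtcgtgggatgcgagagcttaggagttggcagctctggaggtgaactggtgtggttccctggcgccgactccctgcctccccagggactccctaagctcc
Of the 9 genes, 8 matched the table, with 13 windows in all. A GC box stood in 7 of the 13 windows, against 35.7% of all 32851 windows in the table, and CCAAT in 5 of 13, against 37.4%. No window of these genes held TATAAA (13.6% of all windows) or TGACGTCA (1.8%), and 1 held CACGTG (7.2%). All motifs were searched on both strands, and no motif contains another. A match describes the letters in the window and is no evidence of binding.

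Kat2a and Kat2b code for the paralogous acetyltransferases GCN5 and PCAF, of which a SAGA or ATAC coactivator complex carries 1 at a time. Kat2a (Entrez Gene 14534, chr11:100704746-100712485, minus strand) stood at 14.9 and 14.2 CPM in panobinostat pDC, 11.9 and 31.6 CPM in vehicle pDC, 63.6 and 46.0 CPM in panobinostat cDC, and 55.1 and 46.6 CPM in vehicle cDC. All 4 pDC libraries were lower than all 4 cDC libraries, and within a cell type the treated and vehicle libraries overlapped. The share of all genes with such a split was not counted. Lower in pDC without overlap were 35.5% of all genes under vehicle and 38% under panobinostat. Under panobinostat Kat2a averaged 14.5 ± 0.466 CPM in pDC and 54.8 ± 12.5 CPM in cDC (SD, n = 2 each), 3.77-fold lower in pDC (log2 fold change -1.91 ± 0.51, adjusted p = 0.0482 by edgeR). That call lay close to the threshold and was kept in 7 of 17 alternatives, with values from -2.14 to -1.45. The replicate block took it to an adjusted p of 0.0697, limma-voom to 0.0563, the GC and length offsets to 0.0881 and a fit of the 4 panobinostat libraries alone to 0.126. Block and offsets together ended the call as well. It was also lost without panobinostat cDC replicate 1 (0.246) or replicate 2 (0.156), vehicle cDC replicate 1 (0.114) or replicate 2 (0.112), and panobinostat pDC replicate 2 (0.0527). Under vehicle the log2 fold change was -1.23 ± 0.50 (unadjusted p = 0.0463, adjusted p = 0.194 by edgeR). It ran from -2.14 without vehicle pDC replicate 2 to -0.68 without vehicle pDC replicate 1. Of the 17 alternatives, 1 called the gene under vehicle, DESeq2 (adjusted p = 0.0498).

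Kat2b (Entrez Gene 18519, chr17:53566774-53672721, plus strand) stood at 9.92 and 33.4 CPM in panobinostat pDC, 6.76 and 4.81 CPM in vehicle pDC, 7.38 and 8.75 CPM in panobinostat cDC, and 10.02 and 10.99 CPM in vehicle cDC. Both panobinostat pDC libraries were above both vehicle pDC libraries, with panobinostat pDC replicate 2 far above all others, and both panobinostat cDC libraries were below both vehicle cDC libraries. Panobinostat against vehicle in pDC gave 1.90 ± 0.69 (unadjusted p = 0.0318, adjusted p = 0.293 by edgeR). Without panobinostat pDC replicate 2 that value was 0.73 (adjusted p = 0.228), and without replicate 1 it was 2.52 (adjusted p = 0.00096). The change in cDC was -0.38 ± 0.67 (adjusted p = 1) and the difference of the effects 2.28 ± 0.96 (adjusted p = 0.649), or 1.12 without panobinostat pDC replicate 2. Of the summed Kat2a and Kat2b level per kb, Kat2a made up 67.7% and 37.3% in panobinostat pDC, 71.0% and 90.2% in vehicle pDC, 92.3% and 88.0% in panobinostat cDC, and 88.5% and 85.6% in vehicle cDC. Kat2a was the larger share in 7 of 8 libraries, and panobinostat pDC replicate 2 was the exception.

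Ep300 and Crebbp code for p300 and CBP, large paralogous coactivators that acetylate histones at enhancers and bind many transcription factors. Ep300 (Entrez Gene 328572, chr15:81586209-81652077, plus strand) stood at 55.6 and 27.9 CPM in panobinostat pDC, 73.9 and 45.3 CPM in vehicle pDC, 54.9 and 53.4 CPM in panobinostat cDC, and 65.4 and 49.3 CPM in vehicle cDC. The groups overlapped in all comparisons. Its log2 fold changes for panobinostat were -0.51 ± 0.41 in pDC (adjusted p = 0.584 by edgeR) and -0.08 ± 0.41 in cDC (adjusted p = 1). The pDC value was -0.15 without panobinostat pDC replicate 2 and -1.10 without replicate 1 (adjusted p = 0.0382), -0.13 without vehicle pDC replicate 1 and -0.86 without replicate 2, and it turned to 0.01 with GC and length offsets.

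Crebbp (Entrez Gene 12914, chr16:4081334-4213957, minus strand) stood at 62.0 and 56.8 CPM in panobinostat pDC, 57.7 and 34.8 CPM in vehicle pDC, 31.4 and 30.3 CPM in panobinostat cDC, and 40.2 and 39.7 CPM in vehicle cDC. Both panobinostat pDC libraries were above all 4 cDC libraries, and the vehicle pDC libraries lay on either side of the vehicle cDC libraries. Under panobinostat, pDC against cDC gave 0.94 ± 0.31 (unadjusted p = 0.0213, adjusted p = 0.0836 by edgeR), which passed in 3 of 17 alternatives: without panobinostat pDC replicate 1 (adjusted p = 0.0409), without replicate 2 (adjusted p = 0.0453) and with GC and length offsets (1.46, adjusted p = 0.0302). Panobinostat against vehicle gave 0.36 ± 0.31 in pDC (adjusted p = 0.597) and -0.37 ± 0.31 in cDC (adjusted p = 1). The Crebbp value in pDC was 0.0028 without vehicle pDC replicate 2, 0.76 without vehicle pDC replicate 1, 0.17 without scaling and 1.06 with GC and length offsets, none of them called. The ratio of Ep300 to Crebbp, each per kb, was 0.850 and 0.466 in panobinostat pDC, 1.21 and 1.23 in vehicle pDC, 1.66 and 1.67 in panobinostat cDC, and 1.55 and 1.18 in vehicle cDC. It lay below 1 in both panobinostat pDC libraries and above 1 in the other 6.

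Kat5, Kat6a, Kat7 and Kat8 code for acetyltransferases of the MYST family, each the catalytic subunit of its own complexes: TIP60, MOZ, HBO1 and MOF. Kat5 (Entrez Gene 81601, chr19:5603014-5611556, minus strand), whose product acts in DNA repair and histone exchange, had 1224 and 6 counts in panobinostat pDC, or 60.7 and 0.557 CPM, against 63.6 and 62.2 CPM in vehicle pDC, 56.6 and 48.1 CPM in panobinostat cDC and 50.6 and 50.1 CPM in vehicle cDC. A single library was low, and the other 7 lay within 48.1 to 63.6 CPM. The gap between the panobinostat pDC replicates was -6.52 on the log2 scale, and 4.29% of genes had a larger one in that group. Panobinostat against vehicle in pDC gave -1.03 ± 1.44 (adjusted p = 0.759 by edgeR), which was -0.10 without replicate 2 and -6.81 without replicate 1.

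Kat6a (Entrez Gene 244349, chr8:22859442-22943259, plus strand), whose product is known for its part in blood stem cells and in leukemia fusions, stood at 48.0 and 9.57 CPM in panobinostat pDC, 98.7 and 72.4 CPM in vehicle pDC, 77.4 and 74.9 CPM in panobinostat cDC, and 76.7 and 69.3 CPM in vehicle cDC. Both panobinostat pDC libraries were lower than the other 6 libraries, a split whose share over all genes was not counted. The log2 fold change for panobinostat in pDC was -1.57 ± 0.67 (unadjusted p = 0.0566, adjusted p = 0.346 by edgeR), with -0.88 without replicate 2 and -3.17 without replicate 1. In cDC it was 0.06 ± 0.66 (adjusted p = 1). Under panobinostat, pDC against cDC gave -1.40 ± 0.67 (adjusted p = 0.193), with -0.72 without panobinostat pDC replicate 2 (adjusted p = 0.0513) and -3.00 without replicate 1 (adjusted p = 0.000304).

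Kat7 (Entrez Gene 217127, chr11:95271853-95310246, minus strand), whose product acetylates histones at replication origins, stayed within 113 to 181 CPM. It stood at 147 and 176 CPM in panobinostat pDC, 181 and 169 CPM in vehicle pDC, 135 and 125 CPM in panobinostat cDC, and 123 and 113 CPM in vehicle cDC. All 4 pDC libraries were above all 4 cDC libraries, a split whose share over all genes was not counted. Higher in pDC without overlap were 35.1% of all genes under vehicle and 24.7% under panobinostat. The difference of pDC from cDC under vehicle was 0.57 ± 0.17 (unadjusted p = 0.0152, adjusted p = 0.0984 by edgeR), which passed without panobinostat pDC replicate 1 (adjusted p = 0.0204) or replicate 2 (adjusted p = 0.0266). Under panobinostat it was 0.31 ± 0.17 (adjusted p = 0.251), or 0.11 without panobinostat pDC replicate 2 and 0.54 with GC and length offsets, and panobinostat against vehicle in pDC gave -0.12 ± 0.17 (adjusted p = 0.773).

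Kat8 (Entrez Gene 67773, chr7:127912517-127925838, plus strand), whose product acetylates histone H4 in the MSL and NSL complexes, was low throughout. It stood at 7.73 and 19.5 CPM in panobinostat pDC, 17.0 and 19.0 CPM in vehicle pDC, 9.45 and 11.6 CPM in panobinostat cDC, and 11.2 and 11.5 CPM in vehicle cDC. The vehicle pDC libraries were above all 4 cDC libraries, and the panobinostat pDC libraries lay at both ends of the range. The log2 fold change for panobinostat in pDC was -0.40 ± 0.56 (adjusted p = 0.758 by edgeR), with -1.27 without replicate 2 and 0.11 without replicate 1. For pDC against cDC under vehicle it was 0.66 ± 0.56 (adjusted p = 0.589 by edgeR), though the libraries compared did not overlap. All 4 groups share 1 estimate of the spread, so that SE also draws on the panobinostat pDC libraries.

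**Figure D3:**
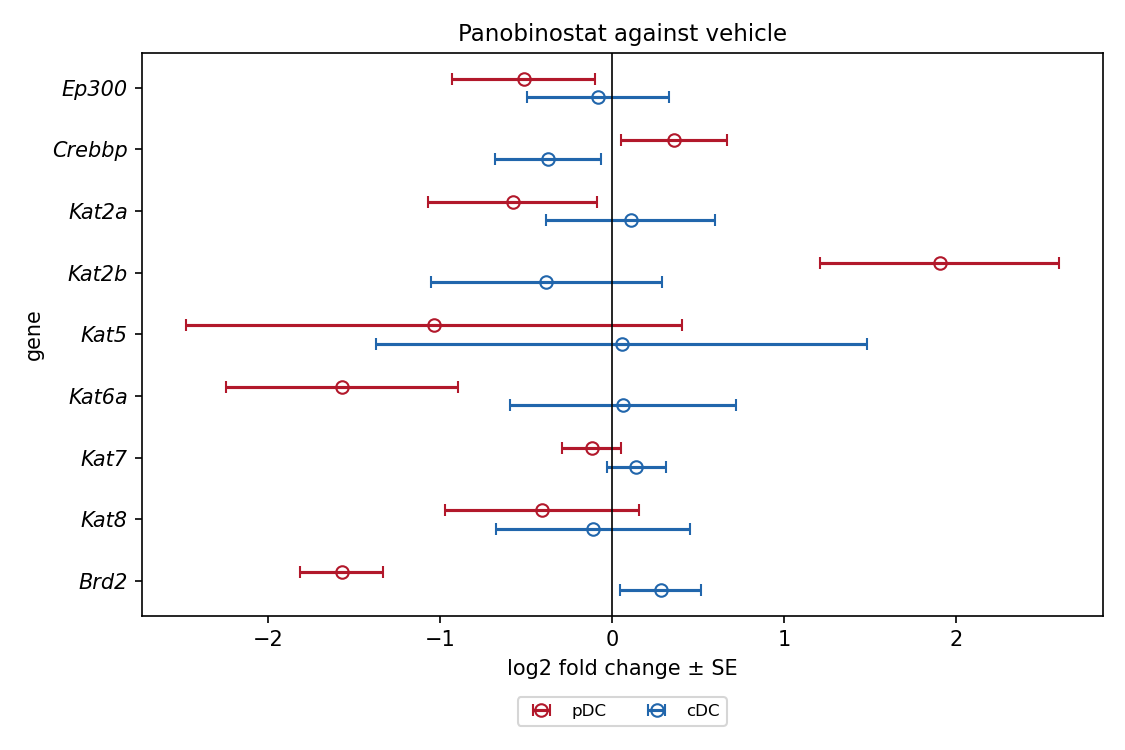
Log2 fold change ± SE (horizontal axis) of each gene (vertical axis) for panobinostat against vehicle in pDC (red) and in cDC (blue), 2 libraries per group. In pDC the values ran from -1.57 for Brd2 to 1.90 for Kat2b, in cDC from -0.38 for Kat2b to 0.28 for Brd2, and none had an adjusted p under 0.05.

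Counted over the 9 genes, panobinostat against vehicle in pDC called 0 genes by edgeR, where 13 of 14238 genes (0.0913%) were called in all, 2 higher (0.014%) and 11 lower (0.0773%), and 0 with the replicate block. At an unadjusted p under 0.05, 2 of the 9 passed, Kat2b and Brd2, beside 14.9% of all genes. DESeq2 called 1 of the 9 (Brd2), beside 6.42% of all genes, and limma-voom 0. The log2 fold change was below 0 in 7 of 9 genes, with a median of -0.51, against 55.4% of all genes and a median of -0.14. Libraries of the groups did not overlap in 1 gene that was higher (Kat2b), where the share over all genes was 15.7%, and in 3 that were lower (Kat5, Kat6a and Brd2), where it was 26.5%. Without panobinostat pDC replicate 2 the count of calls was 1 (Brd2), beside 4.78% of all genes. Without replicate 1 it was 5 (Ep300, Kat2b, Kat5, Kat6a and Brd2), beside 55.3% of all genes, which is near the share of the 9.

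In cDC the same contrast called 0 of the 9 and 0 of all genes (0%) by edgeR. None of the 9 passed at an unadjusted p under 0.05, where 206 of all genes (1.45%) did, and DESeq2 and limma-voom each called 0 of them. Kat7 and Brd2 were higher and Crebbp and Kat2b lower in panobinostat cDC without overlap, beside shares of 22.2% and 18.8% over all genes, and the median change of the 9 was 0.06, against 0.00 over all genes. Of the 9, 4 lay below 0, beside 49.4% of all genes. For the difference of the effects, pDC minus cDC, edgeR called 0 of the 9 and 1 gene in all (0.00702%). Brd2 alone had an unadjusted p under 0.05, beside 7.77% of all genes, and DESeq2 called 1 of the 9 (2.04% of all genes) and limma-voom 0. Without panobinostat pDC replicate 1 the count was 4 (Kat2b, Kat5, Kat6a and Brd2), beside 43.4% of all genes, and without replicate 2 it was 0, beside 1.85%.

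pDC against cDC under panobinostat called 2 of the 9 lower (Kat2a and Brd2) and 0 higher by edgeR, where 2557 genes (18%) were called over all, 1105 of them (7.76%) higher and 1452 (10.2%) lower. With the replicate block 1 of the 9 was called (16.2% of all genes), with limma-voom 1 (24%) and with DESeq2 2 (31.6%). Without panobinostat pDC replicate 2 the count was 2 (Brd2 lower and Crebbp higher), beside 36.1% of all genes, and without replicate 1 it was 8 (all but Kat7), beside 65.9%. It was 1 without panobinostat cDC replicate 1 (2.3% of all genes), vehicle cDC replicate 1 (5.98%) or vehicle cDC replicate 2 (6.08%), and 0 without panobinostat cDC replicate 2 (2.47%). Under panobinostat the libraries did not overlap in 3 genes higher in pDC (Crebbp, Kat2b and Kat7) and 3 lower (Kat2a, Kat6a and Brd2), beside 24.7% and 38% of all genes. pDC against cDC under vehicle called 0 of the 9 by edgeR, 1 by DESeq2 (Kat2a, beside 20.2% of all genes) and 0 by limma-voom (13.9%). Over all, edgeR called 1385 genes (9.73%) there, 714 higher (5.01%) and 671 lower (4.71%). Without panobinostat pDC replicate 1 edgeR called 3 of the 9 under vehicle (Kat2b, Kat7 and Kat8), beside 37.2% of all genes, and without replicate 2 it called 2 (Kat2b and Kat7), beside 36.1%. Kat2a and Kat7 had an unadjusted p under 0.05 with all libraries, beside 24.5% of all genes, and 3 of the 9 lay below 0, beside 48.9%. Under vehicle the libraries did not overlap in 3 genes higher in pDC (Kat5, Kat7 and Kat8) and 2 lower (Kat2a and Kat2b), beside 35.1% and 35.5% of all genes.

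**Figure D4:**
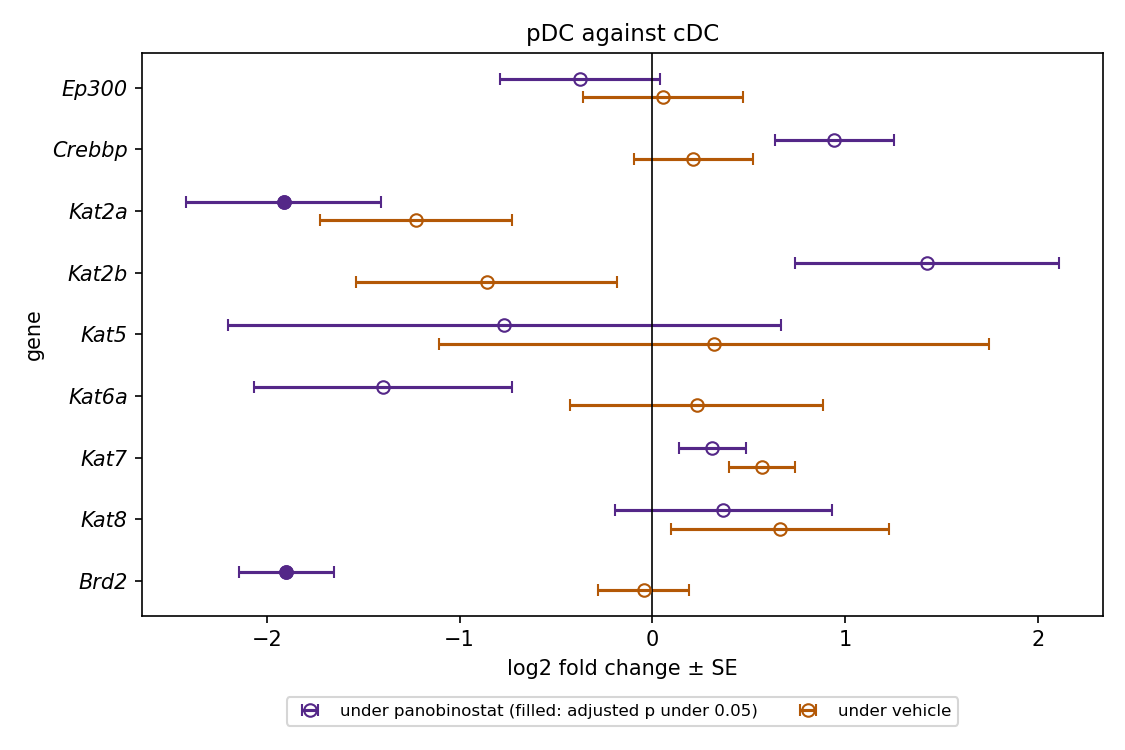
Log2 fold change ± SE (horizontal axis) of each gene (vertical axis) for pDC against cDC under panobinostat (purple) and under vehicle (orange), 2 libraries per group, with filled points where the adjusted p is under 0.05. In the fit as reported, without a replicate block, Kat2a (-1.91) and Brd2 (-1.90) were called lower in pDC under panobinostat. Under vehicle Brd2 lay at -0.04 and Kat2a at -1.23.

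The other genes of the acetylation machinery were taken as 8 lists with 105 genes, all tested: other acetyltransferases, subunits of the SAGA and ATAC, TIP60, MOZ, MORF and HBO1, and MSL and NSL complexes, other BET readers with the elongation kinase P-TEFb, other bromodomain and YEATS readers, and CITED and INHAT regulators of acetyltransferases. Panobinostat against vehicle in pDC called 0 of the 105 by edgeR (8 at an unadjusted p under 0.05, beside 14.9% of all genes; 5 by DESeq2, beside 6.42%; 0 by limma-voom; 8 without panobinostat pDC replicate 2, beside 4.78%). In that contrast 65 of 105 lay below 0, beside 55.4% of all genes, with a median of -0.21, against -0.14 over all genes. List medians in pDC ran from -0.88 for the 10 other acetyltransferases, 9 of them below 0, to 0.50 for the 9 other BET and P-TEFb genes, 6 of them above 0. Between these lay the MOZ, MORF and HBO1 subunits (-0.81, 9 genes), the TIP60 subunits (-0.27, 17 genes), the bromodomain and YEATS readers (-0.22, 23 genes), the SAGA and ATAC subunits (-0.21, 23 genes), the MSL and NSL subunits (-0.05, 11 genes) and the CITED and INHAT regulators (0.35, 6 genes). How far these list medians rest on a single panobinostat pDC library was not tested. The median over all genes was -0.92 without panobinostat pDC replicate 1 and -0.07 without replicate 2. In cDC edgeR called 0 of the 105 (0 at an unadjusted p under 0.05, 0 by DESeq2 and 0 by limma-voom). The median there was -0.07, against 0.00 over all genes, with 66 below 0, beside 49.4% of all genes.

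Among relatives and partners of the 9, Cited2, whose product competes with transcription factors for p300 and CBP, had the largest log2 fold change in pDC among the genes named here. It stood at 18.5 and 35.2 CPM in panobinostat pDC and 2.93 and 2.65 CPM in vehicle pDC, and at 9.60 and 9.67 CPM in panobinostat cDC and 8.39 and 7.80 CPM in vehicle cDC. The pDC groups were far apart and the cDC groups close, though neither pair overlapped. The log2 fold change was 3.27 ± 0.56 in pDC (unadjusted p = 0.000898, adjusted p = 0.128 by edgeR, and 2.81e-09 by DESeq2). It was 3.65 without panobinostat pDC replicate 1 and 2.68 without replicate 2. The difference of the effects was 3.01 ± 0.74 (adjusted p = 0.383 by edgeR).

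Hexim1, the inhibitor of P-TEFb, stood at 9.37 and 50.2 CPM in panobinostat pDC and 11.9 and 13.9 CPM in vehicle pDC, so that a single library was high (1.21 ± 0.76, adjusted p = 0.481; -0.51 without replicate 2 and 1.95 without replicate 1). Trrap, the scaffold that the SAGA and TIP60 complexes share, had 731 and 0 counts in panobinostat pDC and 994 and 434 counts in vehicle pDC (adjusted p = 0.814, with a log2 fold change of -0.07 without replicate 2). The BET gene Brd3 stood at 87.1 and 72.1 CPM in panobinostat pDC and 98.4 and 70.2 CPM in vehicle pDC (-0.08 ± 0.26, adjusted p = 0.904), and the groups overlapped. Kat6b, the paralog of Kat6a, came to -0.69 ± 0.35 in pDC (adjusted p = 0.399), and to -0.20 with GC and length offsets. Ep400, the ATPase of the TIP60 complex, had -0.40 ± 0.36 (adjusted p = 0.617), with -0.11 without panobinostat pDC replicate 2, -0.86 without replicate 1 and 0.27 with GC and length offsets.

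Between pDC and cDC under panobinostat, 3 of the 105 genes were called higher and 3 lower by edgeR, 5.71% beside 18% of all genes. DESeq2 called 17 of the 105, beside 31.6% of all genes, limma-voom 8, beside 24%, the replicate block 4, beside 16.2%, and the fit without panobinostat pDC replicate 2 called 30, beside 36.1%. Ncoa3, a nuclear receptor coactivator with acetyltransferase activity, stood at 37.2 and 37.3 CPM in pDC and 131.9 and 128 CPM in cDC (-1.80 ± 0.22, adjusted p = 0.00566). Naa40, which acetylates the amino termini of histones H4 and H2A, stood at 22.5 and 26.5 CPM in pDC and 79.2 and 73.2 CPM in cDC (-1.64 ± 0.25, adjusted p = 0.0106). The groups did not overlap for either gene. In vehicle pDC Ncoa3 stood at 114.5 and 79.6 CPM and Naa40 at 68.1 and 60.4 CPM, and panobinostat against vehicle in pDC gave -1.38 ± 0.22 for Ncoa3 (adjusted p = 0.126) and -1.39 ± 0.25 for Naa40 (adjusted p = 0.132).

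Higher in pDC were Dr1, a histone-fold subunit of ATAC, with 187 and 146 CPM in pDC and 79.4 and 85.0 CPM in cDC (1.02 ± 0.21, adjusted p = 0.025), and Jade1, a scaffold of the HBO1 complex, with 69.5 and 32.5 CPM in pDC and 13.6 and 15.8 CPM in cDC (1.80 ± 0.42, adjusted p = 0.0346). The groups did not overlap for either gene. Under vehicle Dr1 stood at 156 and 124 CPM in pDC and 83.0 and 78.3 CPM in cDC (0.79 ± 0.21, adjusted p = 0.0667 by edgeR). Jade1 stood at 55.5 and 58.6 CPM in vehicle pDC and 16.8 and 17.5 CPM in vehicle cDC (1.74 ± 0.42, adjusted p = 0.0522 by edgeR). Panobinostat against vehicle in pDC gave 0.25 ± 0.21 for Dr1 (adjusted p = 0.586) and -0.16 ± 0.40 for Jade1 (adjusted p = 0.877). Trim24, a bromodomain reader (1.84 ± 0.43, adjusted p = 0.0356), and Set, an INHAT subunit (-0.73 ± 0.18, adjusted p = 0.0396), complete the 6 and were picked with their values in view. Neither was carried through the processing alternatives, so how far these calls hold was not tested. Leaving out panobinostat cDC replicate 1 or 2 took the adjusted p of Ncoa3 to 0.0588 and 0.0533 and that of Naa40 to 0.0982 and 0.0828, and a fit of the 4 panobinostat libraries alone gave 0.0596 for Ncoa3 and 0.113 for Naa40. Naa40 was also lost with block and offsets (0.0552). Leaving out any 1 of the 4 cDC libraries ended the calls of Dr1 (adjusted p from 0.0736 to 0.181) and Jade1 (0.09 to 0.216). Dr1 was also lost without vehicle pDC replicate 2 (0.0531), with GC and length offsets (0.67, adjusted p = 0.13), with block and offsets (0.0712), without scaling (0.0657) and in the panobinostat libraries alone (0.126). Jade1 was also lost without vehicle pDC replicate 1 (0.0793) or 2 (0.0859), with the replicate block (0.0537), without scaling (0.0534) and in the panobinostat libraries alone (0.193), and its value was 1.14 without panobinostat pDC replicate 1 (adjusted p = 0.00231). Under vehicle 1 of the 105 was called (0.952%, beside 9.73% of all genes): Zmynd8, a reader of acetylated histones, with 125.5 and 114 CPM in pDC and 68.1 and 61.6 CPM in cDC (0.88 ± 0.19, adjusted p = 0.0398; 0.0556 with the replicate block). That call was lost without any 1 of the vehicle or panobinostat cDC libraries or of the vehicle pDC libraries, with adjusted p from 0.131 to 0.284. It was also lost with RLE scaling (0.0738), without the filter (0.124), with GC and length offsets (0.205) and with block and offsets (0.182). Of the 105, DESeq2 called 12 under vehicle, beside 20.2% of all genes, limma-voom 6, beside 13.9%, and the fit without panobinostat pDC replicate 2 called 25, beside 36.1%.

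**Figure D5:**
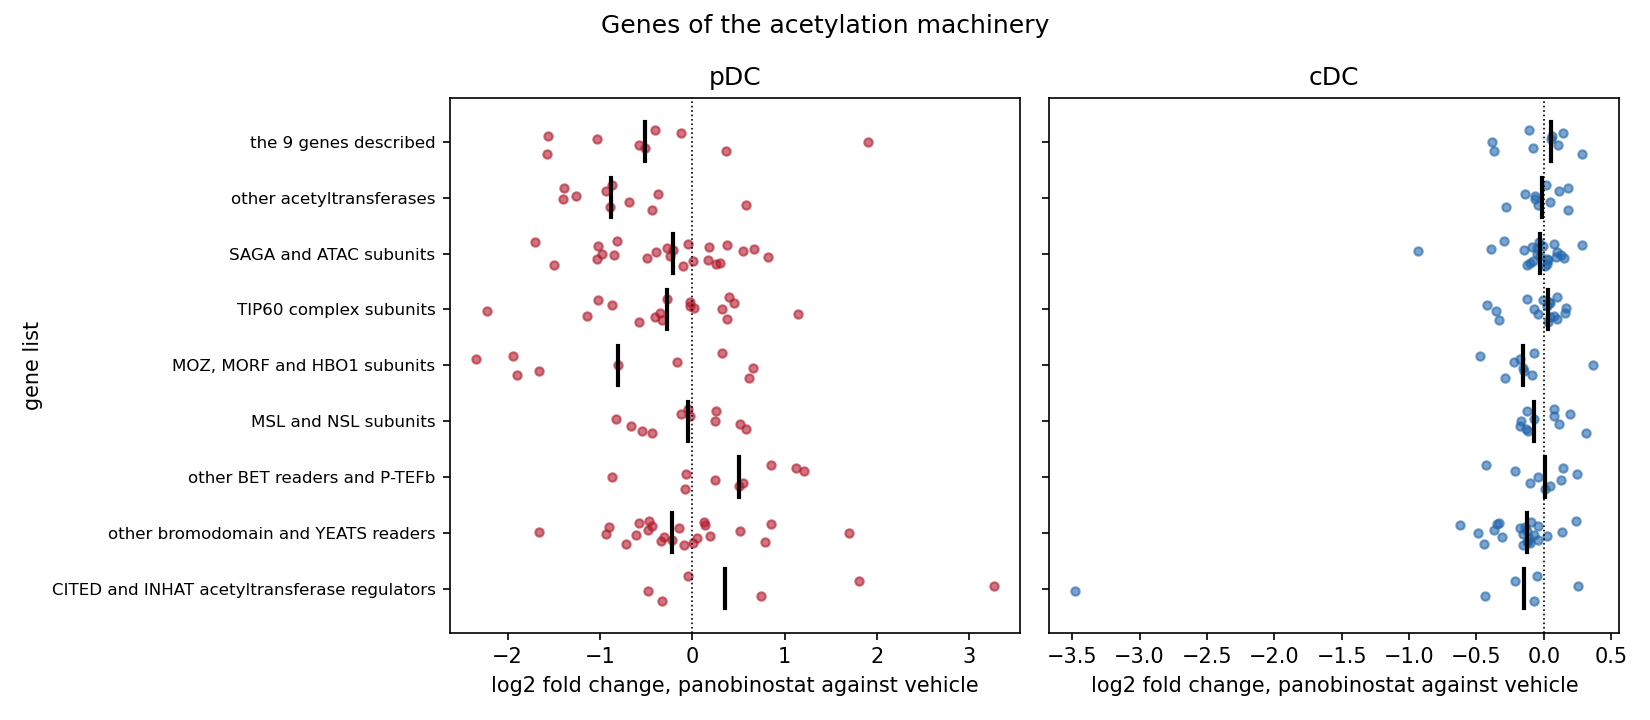
Log2 fold change for panobinostat against vehicle (horizontal axis, own scale per panel) of the genes of each list (vertical axis) in pDC and cDC, with 1 point per gene and a black bar at the list median. In pDC the medians ran from -0.88 for other acetyltransferases to 0.50 for other BET readers and P-TEFb, and in cDC from -0.15 for the MOZ, MORF and HBO1 subunits to 0.04 for the TIP60 subunits, with Cited1 at -3.48 the lowest point.

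The shape of each pattern over the 8 libraries was compared by the root mean square difference of log2 CPM centred on each gene's mean. The genes most like Brd2 were B4galnt1 (0.159), Pelo (0.162) and Zfp36l1 (0.164), where the median over all genes was 1.13. Those most like Kat2a were Afg3l2 (0.194), Plbd2 (0.219) and Cltb (0.233), beside a median of 1.24. Those most like Ep300 were Med1 (0.0921), Mdm4 (0.0937) and Smg6 (0.0951), beside a median of 0.967. Among the 9, the closest pair was Crebbp and Kat7 (0.326), Kat6a and Brd2 were each other's nearest (0.559), and Kat5 was the farthest from 7 of the other 8, the exception being Kat6a, which lay farthest from Kat2b (1.71). The libraries share their depth and composition across genes, so likeness of this kind is a description only.

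Reads of some of these genes may be shared with neighbours, since the strand setting of the counting is not given in the sources used here. In the comprehensive GENCODE annotation of mm10, exons of Brd2 share 360 bases with H2-DMa and 405 bases with the antisense gene CR974462.3 on the other strand, and 0 bases with either in its basic set. In both sets exons of Kat5 share 426 bases with Rnaseh2c, and exons of Kat8 share 122 bases with Prss8. H2-DMa, which codes for a chain of the peptide-exchange factor of MHC class II, stood at 633 and 1219 CPM in panobinostat pDC, 507 and 624 CPM in vehicle pDC, 758 and 806 CPM in panobinostat cDC, and 537 and 576 CPM in vehicle cDC. Its log2 fold change for panobinostat in pDC was 0.71 ± 0.32 (adjusted p = 0.362). Rnaseh2c stood at 11.7 and 22.3 CPM in panobinostat pDC, where Kat5 stood at 60.7 and 0.557 CPM.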

How the data were processed

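The deposited values were raw read counts per Entrez Gene ID, 1 column per library. Per the submitters' processing notes, the tools named were bcl2fastq 2.17.1.14, FastQC 0.11.6, cutadapt 2.1, HISAT2 2.1.0, featureCounts (Subread 2.0.0) and limma, with the build mm10. Nothing in the sources used here gives the gene annotation or the treatment of strand and of reads with several matches. The column names give D5W for vehicle and LBH for panobinostat. Symbols were found for 25275 of 27179 IDs (92.99%).

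Counts were filtered with filterByExpr (minimum count 10, minimum total 15, 14238 genes kept) and scaled by TMM. They were fitted with edgeR 4.0.16 in R 4.3.3 (quasi-likelihood test, all 4 groups in 1 fit, 4 residual degrees of freedom). Benjamini-Hochberg adjustment and a threshold of 0.05 were used. A prior count of 2 was used only where log2 CPM was computed. DESeq2 1.42.0 and limma-voom (limma 3.58.1) were alternatives. The fit was first run on simulated data in which all libraries shared the same spread. None of those was made short of many genes, so the run cannot show how the fit handles panobinostat pDC replicate 2. Exon length and GC content came from GENCODE M21, and 89.7% of tested genes had both. Named beside the 9 genes were Kat6b, Ep400, Trrap, Brd3, Hexim1 and Cited2 and, from the machinery lists, the 2 called genes with the smallest p in each direction of a comparison. The 9 genes and the lists were chosen with earlier results of these data known.

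Libraries with the same replicate number deviated together (correlations of 0.146 to 0.489 over 6 pairs of groups, all over 0.1). The labels do not say whether the numbers mark pairs. The fit as reported held no replicate block, so its p-values leave out any such pairing. The block was run as an alternative, and its result is given where it changes a call. Separate cultures or animals per replicate are known only from the word biological in the labels, so p-values measure the spread between these libraries. All 4 groups share 1 estimate of that spread per gene, so scatter in panobinostat pDC also enters comparisons without that group. Kat5 under vehicle stood at 63.6 and 62.2 CPM in pDC and 50.6 and 50.1 CPM in cDC. Its log2 fold change there had an SE of 1.43. A missing call in cDC or under vehicle in the fit of all 4 groups therefore need not reflect scatter within the groups compared. In an edgeR fit of the compared groups alone, 0 of 13556 genes were called in cDC. The missing calls in cDC thus stayed when the pDC libraries were left out. At an unadjusted p under 0.05, 1324 genes passed there, against 206 in the fit of all 4 groups. Under vehicle the compared groups alone gave 4491 called genes, against 1385. None of the 9 genes was called in either of these fits.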

Additional observations from a re-analysis of the deposited data

How the results depend on the processing

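With 2 libraries per group, and 1 library short of many genes, small differences were not detectable. Large ones also went uncalled, such as the log2 fold change of 3.27 for Cited2 in pDC (adjusted p = 0.128 by edgeR). A count of 0 calls is thus no evidence of no change, and calls moved with the libraries included. Over all named values and alternatives, 853 kept their direction and side of the threshold, 48 lost a call, 38 gained one and 38 turned direction, and the cause was not tested.

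For panobinostat against vehicle in pDC, 13 genes were called as reported, against 2 with RLE scaling, 68 without the filter, 914 by DESeq2, 0 by limma-voom, 0 with the replicate block, 1 with GC and length offsets, 0 with both and 0 in a fit of the compared groups alone. Of the 9 genes, 1 was called without the filter and 1 by DESeq2, against 0. In cDC DESeq2 called 15 genes, against 0. For the difference of the effects, 1 gene was called as reported, against 5 without the filter, 290 by DESeq2 (1 of the 9) and 0 with RLE scaling, no scaling, limma-voom, the replicate block, the offsets or block and offsets. For pDC against cDC under panobinostat, DESeq2 called 4495 genes and the fit of the compared groups alone 161, against 2557. Of the 9, limma-voom called 1, the replicate block 1, block and offsets 1 and the compared groups alone 0, against 2. Under vehicle, DESeq2 called 2880 genes (1 of the 9) and the compared groups alone 4491, against 1385. The replicate block changed no other call of the 9 genes.

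Leaving out 1 library in turn, with the lone sample of its group assumed to vary like the other groups, gave 0 to 8227 genes called for panobinostat in pDC, 0 to 6457 for the difference of the effects, 288 to 5531 for the cell types under vehicle and 346 to 9796 under panobinostat. The highest counts came without panobinostat pDC replicate 1. Without replicate 2 they were 719, 279, 5439 and 5432 in the same order of comparisons, and without any 1 of the other 6 libraries 0, 0, at most 555 and at most 1348. Of the 9 genes it gave 0 to 5 in pDC, 0 to 4 for the difference, 0 to 3 under vehicle and 0 to 8 under panobinostat.

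Directions turned with GC and length offsets, and with block and offsets, for panobinostat in pDC in Brd3 (0.36 and 0.37), Ep300 (0.010 and 0.018), Ep400 (0.27 and 0.29) and Kat7 (0.12 and 0.11), and for Ep300 in the difference of the effects (0.022 and 0.021) and under vehicle (-0.048 and -0.052, with -0.068 by RLE scaling and -0.068 by DESeq2). Without scaling Kat2a (-0.023), Kat5 (-0.077) and Kat6a (-0.076) turned in cDC. The median of all genes in pDC was -0.14 as reported and -0.28 without scaling, and in cDC 0.00 and -0.13.

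Leaving out 1 library turned direction within these ranges. In pDC they were Brd3 -0.34 to 0.17, Ep400 -0.86 to 0.018, Hexim1 -0.51 to 1.95, Kat2a -1.13 to 0.26, Kat7 -0.31 to 0.0014 and Kat8 -1.27 to 0.11. In cDC they were Ep300 -0.27 to 0.15, Kat2a -0.14 to 0.33, Kat5 -0.063 to 0.17, Kat6a -0.0098 to 0.15 and Kat8 -0.26 to 0.034. For the difference they were Kat2a -1.24 to 0.16 and Kat8 -1.14 to 0.21. Under vehicle they were Brd2 -0.33 to 0.17, Crebbp -0.19 to 0.49, Ep300 -0.34 to 0.32 and Kat6a -0.0047 to 0.39, and under panobinostat Kat5 -6.54 to 0.15 and Kat8 -0.50 to 0.88.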
